A study of Arabidopsis thaliana with 12 samples.

Results

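Loss of GUN1 was examined in Arabidopsis seedlings that already carried a mutation in FUG1. The comparison used 6 of the 12 RNA-seq libraries of the series, chosen by their titles: 3 of the double mutant gun1-103 fug1-3 (written gun1 fug1) and 3 of the single mutant fug1-3 (SAIL_209_E08; written fug1). Both groups carry fug1-3, so by their labels the groups differ in the gun1-103 allele (SAIL_742_A11). The other 6 libraries, 3 of wild type (Col-0) and 3 of gun1-103, served to set the effect of gun1 without fug1 beside it. Whole seedlings 4 d old were grown at 22 °C on medium with 1% sucrose in cycles of 16 h of light and 8 h of dark. Stratification lasted 2 d and the light was 100 µmol per square metre per second for all libraries. Each genotype is represented by 1 allele. The labels do not say whether replicates were separate cultures, so the p-values measure the spread between these libraries, which may be technical.

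GUN1 belongs to the pentatricopeptide repeat proteins, works inside plastids and is needed for normal communication from plastids to the nucleus. FUG1 is the plastid translation initiation factor IF2, which starts protein synthesis on plastid ribosomes. Plastids hold proteins made both by their own ribosomes and in the cytosol, and chaperones, import complexes and proteases keep these proteins folded and in balance. The title of the series names plastid proteostasis as its subject.

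With all libraries, 4 of 9 tested genes of a cytosolic heat shock list and 4 of 11 tested nuclear genes for plastid chaperones rose in gun1 fug1 against fug1, and 0 of either list fell. Of these 8 calls, those of AT5G48570 and Cpn60beta2 held without each library in turn and the other 6 ended without at least 1. Both lists were chosen with earlier results of these data known, so their counts are descriptive. Among single genes, GolS1 and CSD2 rose and CKX5 and GASA6 fell. With all libraries, 25 of 15371 genes tested were called higher in gun1 fug1 (0.163%) and 16 lower (0.104%), at an adjusted p under 0.05, which makes 0.267% in either direction. The library gun1 fug1 replicate 3 stood apart from the others and results are therefore given with it and without it. Without it, 59 of 16201 genes were called higher (0.364%) and 57 lower (0.352%), together 0.716%, and the genes named below are part of these. All 25 and all 16 genes called with all libraries were also called without that library in the same direction. Without replicate 3 the gun1 fug1 group has 2 libraries, and the spread of the tests comes from all genotypes.

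Total counts ranged from 8519197 to 12360838 per library. Genes without any count numbered 23881 in gun1 fug1 replicate 3 and 13359 to 16417 in the remaining 11 libraries. RR3 (AT2G41310) and AT2G09250, which overlap, together took 1.14% to 2.49% of the counts in fug1 libraries. They took 0.662% to 1.09% in wild type, 2.11% to 3.24% in gun1, and 4.69% and 3.83% in gun1 fug1 replicates 1 and 2. Replicate 3 of gun1 fug1 stood at 31.0%. Its effective library size, the total after TMM scaling, was 833572, so that 1 count equals over 1 CPM there, where CPM is the count scaled to a common effective library size, and genes of low level are poorly resolved. Its log2 levels correlated with those of gun1 fug1 replicates 1 and 2 at 0.73 and 0.72 across genes, where the other pair of that group gave 0.96. The 18S ribosomal RNA locus AT2G01010 had 1579 and 908 counts in gun1 fug1 replicates 1 and 2, 3 in replicate 3, and 6, 36 and 24 in fug1. Its part in the results, and that of the abundant RR3 locus, was not tested.

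The levels of both mutated genes were set beside the labels. GUN1 (AT2G31400) stood at 7.89, 10.7 and 8.40 CPM in gun1 fug1 and at 31.8, 28.6 and 24.6 CPM in fug1. The groups did not overlap, and the difference was -1.63 ± 0.22 (log2 fold change ± SE, adjusted p = 0.000762), or -1.61 ± 0.21 without replicate 3 (adjusted p = 0.000189). FUG1 (AT1G17220) stood at 9.94, 8.45 and 15.6 CPM in gun1 fug1 and 5.70, 11.2 and 9.29 CPM in fug1. These overlapped, with a log2 fold change of 0.20 ± 0.36 (adjusted p = 0.883). In wild type FUG1 had 44.4, 35.9 and 26.3 CPM, above every library of both mutants compared. In gun1 it had 33.8, 17.8 and 13.9 CPM, a range that holds the 15.6 CPM (13 counts) of gun1 fug1 replicate 3. GUN1 rests on 7 counts in that library, so these genes do not settle its label.

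Promoters of the heat-responsive genes that rose are shown first, since the heat shock list had 4 called members of 9 tested with all libraries. Heat shock factors bind inverted repeats of a short core, searched here as GAANNTTC on both strands, from 250 bases before to 50 bases after the annotated start. The gene group consists of the 6 called members of the heat shock list, together with HSP21, APX2 and GolS1, which were added after their values were seen. HSP18.2, HSP17.6II, HSP21 and APX2 were tested only without replicate 3. The group was picked by its values, so a count over it cannot be read against the shares over all genes given below. The core was found in 5 of these 9 promoters, those of HSP70 and BAG6 and of the added HSP21, APX2 and GolS1. In 4 of them it lay in the 160 bases before the start, which are printed 5′ to 3′ in the direction of the gene from the RefSeq TAIR10.1 genome, with the core in capitals.
BAG6, chr2:18985973-18986132, plus strand: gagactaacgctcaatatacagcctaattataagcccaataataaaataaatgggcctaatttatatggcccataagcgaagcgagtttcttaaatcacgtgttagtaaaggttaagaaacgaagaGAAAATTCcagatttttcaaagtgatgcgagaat
HSP21, chr4:13819972-13820131, minus strand: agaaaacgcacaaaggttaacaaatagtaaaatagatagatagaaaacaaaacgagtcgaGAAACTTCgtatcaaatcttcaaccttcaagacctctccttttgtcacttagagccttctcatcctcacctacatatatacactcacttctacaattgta
APX2, chr3:2955996-2956155, plus strand: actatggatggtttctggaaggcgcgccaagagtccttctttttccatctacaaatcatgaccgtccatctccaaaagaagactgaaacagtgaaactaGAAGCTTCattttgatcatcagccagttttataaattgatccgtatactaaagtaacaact
GolS1, chr2:19370479-19370638, minus strand: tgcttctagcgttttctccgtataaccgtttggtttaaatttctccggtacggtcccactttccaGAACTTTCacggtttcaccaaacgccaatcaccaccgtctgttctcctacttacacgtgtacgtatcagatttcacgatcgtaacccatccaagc
HSP21 held a second match outside the bases shown. In HSP70 the match lay outside the 160 bases before the start, and HSP90.1, AT5G48570, HSP18.2 and HSP17.6II had none in the window searched. The annotated start of HSP90.1 may lie inside its coding sequence, so its window may miss the promoter. Other arrangements of the core were not searched, so a missing match does not show that a gene lacks such elements. The core began 34 bases before the start in BAG6, 100 before in HSP21, 61 before in APX2 and 95 before in GolS1. Over all protein-coding genes, 3177 of 27443 promoters held it (11.6%), as did 1683 of 15203 of the genes tested (11.1%). Among called genes it was present in 11 of 52 promoters of genes that rose (21.2%) and in 5 of 35 of those that fell (14.3%), without replicate 3. A match describes these letters only and shows neither a bound site nor a cause.

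The cytosolic heat shock list had 17 matched members. With all libraries 9 passed the filter on low counts, of which 4 rose and 0 fell, and without replicate 3, 12 passed, of which 6 rose and 0 fell. The median log2 fold change of the tested members was 1.67 with all libraries and 1.90 without replicate 3, where that of all genes was -0.02 and 0.00. The 3 members added without replicate 3 (HSP18.2, HSP17.6II and HSP17.4) passed the filter only through gun1 fug1 replicates 1 and 2, where they are high, so the larger count and median give no support. Over the 9 members tested in both fits, 4 rose without replicate 3 and the median was 1.70. HSP90.1 (AT5G52640), the heat-inducible cytosolic HSP90, stood at 11.5, 3.81 and 4.80 CPM in gun1 fug1 and at 1.36, 0.834 and 1.26 CPM in fug1. Replicate 1 was the highest, and every gun1 fug1 library lay above every fug1 library, a condition of naming this gene. The log2 fold change was 2.68 ± 0.44 (adjusted p = 0.00649), and 2.75 ± 0.47 without replicate 3 (adjusted p = 0.00682).

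AT5G48570, which encodes an isomerase of the FKBP type and is listed as ROF2, a partner of heat shock factors, rose most among the list members tested with all libraries. It stood at 6.98, 3.44 and 4.80 CPM in gun1 fug1 and at 0.136, 0.238 and 0.774 CPM in fug1, without overlap. The log2 fold change was 3.62 ± 0.49 (adjusted p = 0.000762), and 3.64 ± 0.49 without replicate 3 (adjusted p = 0.000298). HSP70 (AT3G12580), a heat-inducible cytosolic HSP70, stood at 50.7, 23.9 and 30 CPM against 13.9, 10.6 and 9.29 CPM. It rose by 1.67 ± 0.30 (adjusted p = 0.0163), and by 1.75 ± 0.35 without replicate 3 (adjusted p = 0.0467). BAG6 (AT2G46240), a co-chaperone of the BAG family, had 4.93, 2.41 and 2.40 CPM against 1.09, 1.19 and 0.484 CPM, a rise of 1.99 ± 0.42 (adjusted p = 0.0334), or 2.05 ± 0.41 without replicate 3 (adjusted p = 0.0148). In all 4 genes gun1 fug1 replicate 1 was the highest library, and no gun1 fug1 library overlapped fug1. For HSP90.1 and HSP70 the lack of overlap was a condition of naming them. How many of all genes tested lack overlap was not counted, so here and for the genes below it gives no support.

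The small heat shock proteins were nearly silent in fug1 and were tested only without replicate 3. HSP21 (AT4G27670), the small heat shock protein of the plastid, had 126 and 83 counts in gun1 fug1 replicates 1 and 2 and 0 in all 3 fug1 libraries, which is at least 75.9-fold higher against a floor of 3 counts over the fug1 group (adjusted p = 4.49e-07). Replicate 3 had 2 counts in its small effective library, or 2.40 CPM. HSP18.2 (AT5G59720), of cytosolic class I, had 81 and 50 counts against 1, 0 and 1, a ratio of 71.3 (95% exact counting interval 19.4 to 595; adjusted p = 6.39e-05). HSP17.6II (AT5G12020), of cytosolic class II, had 39 and 23 counts against 0 in each fug1 library, at least 22.5-fold higher (adjusted p = 0.000566), and 0 in replicate 3. HSP21 also passed the filter only through gun1 fug1 replicates 1 and 2, so a high value there is a condition of its test. These bounds and intervals cover counting error only.

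The other tested list members did not pass the test. HSP101 (AT1G74310), the disaggregase of heat tolerance, had 1.84 (adjusted p = 0.124) and Hsp70b (AT1G16030) 1.63 (adjusted p = 0.201) as log2 fold changes with all libraries. HSFB2A (AT5G62020), a heat shock factor of the repressor class, was the only tested member below 0, at -1.22 (adjusted p = 0.0998). HSFA2 (AT2G26150), a heat-induced activator, had 1 and 5 counts in gun1 fug1 replicates 1 and 2 and 0 in fug1 and was not tested. HSP90.1 lost its call without fug1 replicate 2, fug1 replicate 3 or gun1 fug1 replicate 1 (1.77 to 2.76, adjusted p = 0.0597 to 0.289) and HSP70 without the same libraries (1.19 to 1.63, 0.1 to 0.201). BAG6 lost it without any fug1 library or gun1 fug1 replicate 1 (1.41 to 2.24, 0.0739 to 0.465), whereas AT5G48570 stayed called without each library in turn. Without replicate 3, HSP90.1 and HSP70 were not called by limma-voom (adjusted p = 0.103 and 0.0756), and ended without 3 and 4 of the 5 other libraries in turn (1.72 to 2.83, 0.0515 to 0.379, and 1.09 to 1.91, 0.0712 to 0.392).

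**Figure D1:**
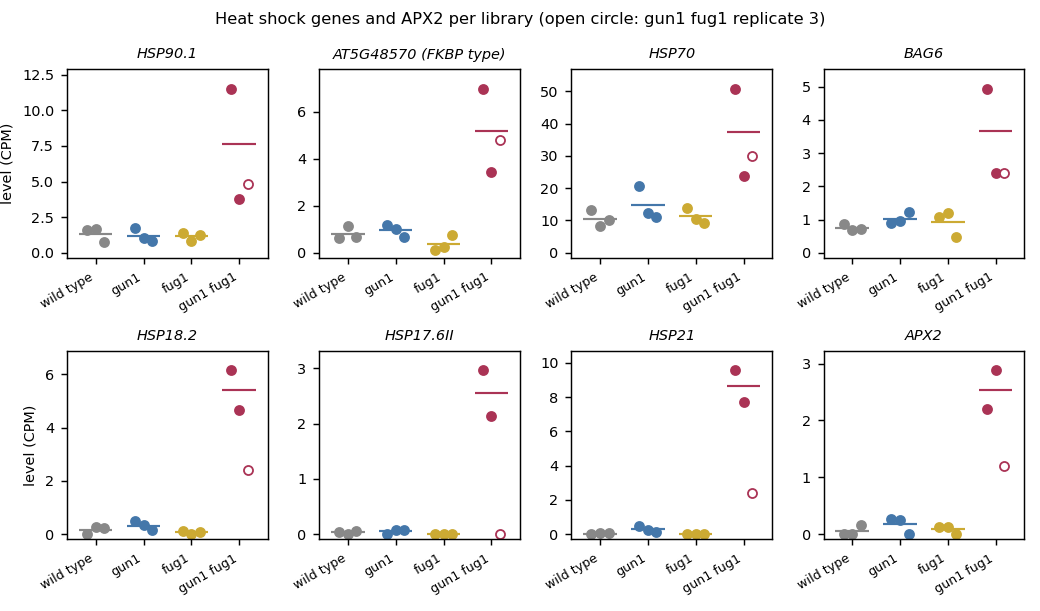
Levels in CPM (linear axis) of 8 heat-responsive genes in each library of the 4 genotypes, with a bar at the mean, which leaves out gun1 fug1 replicate 3 (open circle). For HSP90.1 the gun1 fug1 libraries sit at 3.81 to 11.5 CPM and the fug1 libraries at 0.834 to 1.36 CPM, and HSP21 is at 0 in all fug1 libraries.

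Genes of stress metabolism that rose beside them include APX2, GolS1 and CSD2. APX2 (AT3G09640), a cytosolic ascorbate peroxidase that removes hydrogen peroxide, had 2.2, 2.88 and 1.2 CPM in gun1 fug1 and 0.136, 0.119 and 0 CPM in fug1. Without replicate 3 this is 60 counts against 2, a ratio of 32.7 (95% exact counting interval 8.66 to 276; adjusted p = 0.00659). It too passed the filter only through the libraries where it is high, and its call ended without fug1 replicate 3 or either gun1 fug1 library (adjusted p = 0.0545 to 0.092). It was the single called member of 17 tested on the list of oxidative and mitochondrial stress, whose median was -0.05. GolS1 (AT2G47180; its locus overlaps ARF1A1C), galactinol synthase of the raffinose pathway, stood at 25.9, 15.6 and 18 CPM against 4.48, 4.05 and 5.81 CPM. The groups lay far apart, with 2.08 ± 0.25 (adjusted p = 0.000175) and 2.12 ± 0.24 without replicate 3 (adjusted p = 5.19e-05). CSD2 (AT2G28190), the plastid copper/zinc superoxide dismutase, stood at 10.5, 14.0 and 7.20 CPM against 2.72, 3.57 and 2.52 CPM, a rise of 1.98 ± 0.28 (adjusted p = 0.000835), or 2.06 ± 0.26 without replicate 3 (adjusted p = 0.000126). It was the only called member of 7 on the list of superoxide dismutases and copper genes, with a median of 0.10 with all libraries and 0.23 without replicate 3. The calls of GolS1 and CSD2 held without each library in turn.

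Nuclear genes for plastid chaperones were another group with several calls. Of 13 matched members 11 were tested with all libraries, of which 4 rose and 0 fell, and 12 without replicate 3, of which 5 rose and 0 fell. Their median log2 fold change was 0.51 and 0.65. The member called only without replicate 3 is HSP21, described above, which entered through the group where it is high. Over the 11 members tested in both fits, 4 rose without replicate 3 and the median was 0.61. Cpn60beta2 (AT3G13470; overlapping AT3G13480), a beta subunit of the chaperonin that folds imported proteins such as Rubisco, stood at 30.3, 25.4 and 15.6 CPM in gun1 fug1 and at 8.56, 7.74 and 9.39 CPM in fug1. It rose by 1.58 ± 0.24 (adjusted p = 0.00123), and by 1.70 ± 0.21 without replicate 3 (adjusted p = 0.000126). CPN60B (AT1G55490; overlapping ZKT), another beta subunit, stood at 15.6, 12.3 and 36.0 CPM against 5.43, 5.95 and 6.20 CPM. Replicate 3 was far above the other gun1 fug1 libraries here, and the rise of 1.56 ± 0.29 (adjusted p = 0.0163) was 1.25 ± 0.22 without it (adjusted p = 0.00485).

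CR88 (AT2G04030), the HSP90 of the plastid stroma, stood at 16.2, 11.3 and 18 CPM against 3.53, 5 and 7.16 CPM in fug1. It rose by 1.43 ± 0.27 (adjusted p = 0.0163), and by 1.38 ± 0.27 without replicate 3 (adjusted p = 0.0162). The stromal HSP70 gene cpHsc70-1 (AT4G24280), which also overlaps AT4G03095, stood at 69.3, 61.5 and 74.4 CPM against 35, 26.3 and 36.6 CPM, a rise of 1.06 ± 0.20 (adjusted p = 0.0166), or 1.01 ± 0.18 without replicate 3 (adjusted p = 0.00456). None of these 4 genes overlapped between the groups, which for Cpn60beta2, CPN60B and CR88 was a condition of naming them. The alpha subunit CPN60A (AT2G28000) had 0.51 (adjusted p = 0.325) and the co-chaperonin CPN20 (AT5G20720) 0.14 (adjusted p = 0.871), and a further beta subunit, Cpn60beta3 (AT5G56500), -0.44 (adjusted p = 0.827), all as log2 fold changes with all libraries. Whether subunits differed from each other was not tested. The call of Cpn60beta2 held without each library in turn. CPN60B and cpHsc70-1 lost theirs without any fug1 library or gun1 fug1 replicate 1 (1.51 to 1.67, adjusted p = 0.0578 to 0.0981, and 0.91 to 1.14, 0.0698 to 0.197), and CR88 without fug1 replicate 1, fug1 replicate 2 or gun1 fug1 replicate 1 (1.23 to 1.39, 0.0986 to 0.255).

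Plastid translation and import genes had fewer calls. Of 11 translation factors 1 rose in both fits, emb2726 (AT4G29060), the elongation factor EF-Ts, and 10 of 11 had a log2 fold change above 0, with a median of 0.62 and of 0.65 without replicate 3. It stood at 38.4, 29.3 and 19.2 CPM against 12.6, 14.1 and 15.5 CPM, a difference of 1.13 ± 0.25 (adjusted p = 0.0479), or 1.27 ± 0.23 without replicate 3 (adjusted p = 0.00621). With all libraries its call ended without any other library of the groups (0.87 to 1.19, adjusted p = 0.088 to 0.4). It ended too with DESeq2 (adjusted p = 0.0635), limma-voom (0.0678), RLE factors (0.0539), upper-quartile factors (0.0524) and the 2 groups alone (0.0503), so that DESeq2 and limma-voom called 0 translation factors with all libraries. Of 16 import genes 0 were called with all libraries in edgeR, DESeq2 or limma-voom, though 6 had an unadjusted p under 0.05, and 2 rose without replicate 3. The receptor gene TOC159 (AT4G02510; overlapping GSTF2) stood at 42.4, 43.3 and 26.4 CPM against 19.3, 23.7 and 28.2 CPM. Replicate 3 lay among the fug1 libraries, and the value was 0.71 ± 0.22 with it (adjusted p = 0.197) and 0.85 ± 0.19 without it (adjusted p = 0.0301). TIC110 (AT1G06950), of the inner envelope complex, had 0.82 ± 0.20 (adjusted p = 0.0817) and 0.77 ± 0.18 (adjusted p = 0.0496) in that order. Without replicate 3 the TOC159 call ended without 4 of the 5 other libraries in turn (0.72 to 0.86, adjusted p = 0.129 to 0.361). The TIC110 call ended without any of them (0.68 to 0.85, 0.127 to 0.574), and with DESeq2 (0.0584), limma-voom (0.0704), RLE factors (0.0501), upper-quartile factors (0.0518) and organelle genes left out (0.0584).

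Other named genes rose. CP29 (AT3G53460), a chloroplast RNA-binding protein, stood at 50.3, 48.4 and 22.8 CPM against 16.8, 19.4 and 21.5 CPM, a rise of 1.16 ± 0.24 (adjusted p = 0.0319), or 1.36 ± 0.19 without replicate 3 (adjusted p = 0.000392). Replicate 3 was the lowest gun1 fug1 library and stood just above fug1. The GTP-binding protein gene emb2738 (AT3G12080; overlapping TET6) stood at 8.57, 5.94 and 13.2 CPM against 3.12, 3.10 and 2.32 CPM and rose by 1.49 ± 0.29 (adjusted p = 0.0166), or 1.37 ± 0.26 without replicate 3 (adjusted p = 0.00966). Called without replicate 3 alone were WEB1 (AT2G26570), which acts in chloroplast movement, at 1.42 ± 0.32 (adjusted p = 0.0353), and EMB1865 (AT3G18390), with an RNA-binding CRM domain, at 1.35 ± 0.30 (adjusted p = 0.0293). EX2 (AT1G27510), a plastid protein of singlet oxygen responses, had 1.01 ± 0.24 (adjusted p = 0.0494), and was with GUN1 one of 2 called of 17 retrograde regulators. The EX2 call ended with DESeq2 (adjusted p = 0.0806), limma-voom (0.0758), upper-quartile factors (0.0508) and organelle genes left out (0.058), and without 4 of the 5 other libraries in turn (0.85 to 1.15, 0.097 to 0.599). WEB1 was not called by limma-voom (adjusted p = 0.0704) and ended without 4 of those libraries (0.96 to 1.51, 0.1 to 0.672), and EMB1865 without 3 (1.05 to 1.31, 0.131 to 0.599). CP29 lost its call without any other library (0.99 to 1.23, adjusted p = 0.101 to 0.294), and emb2738 without any fug1 library or gun1 fug1 replicate 1 (1.35 to 1.56, 0.0658 to 0.255).

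**Figure D2:**
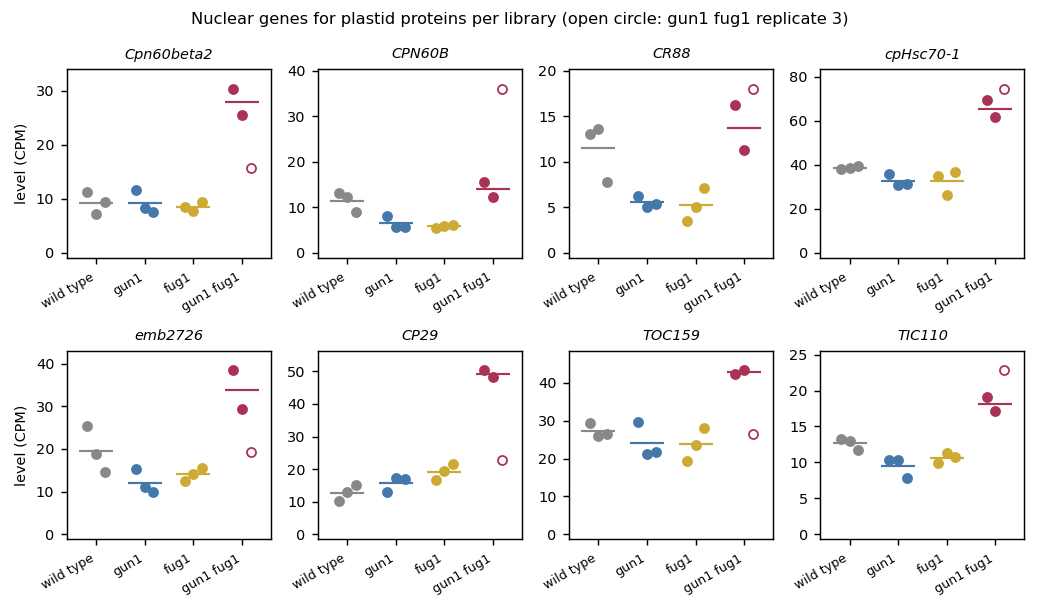
Levels in CPM (linear axis) of 8 nuclear genes for plastid proteins in each library of the 4 genotypes, with a bar at the mean, which leaves out gun1 fug1 replicate 3 (open circle). Cpn60beta2 lies at 15.6 to 30.3 CPM in gun1 fug1 and at 7.74 to 9.39 CPM in fug1, while replicate 3 of TOC159 (26.4 CPM) falls within the range of fug1.

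Several lists for the plastid had no called member in edgeR, with or without replicate 3. The counts below give members with an unadjusted p under 0.05, with all libraries and then without replicate 3, and DESeq2 and limma-voom called none of these lists' members except 1 tetrapyrrole gene that DESeq2 called higher without replicate 3. Light harvesting (20 tested) had 4 and 3 such members and a median of -0.28 and -0.18, and photosystems and electron transport (32 tested) had 12 and 8 and a median of -0.44 and -0.32. Nuclear plastid ribosomal proteins (37 tested) had 5 and 5 with -0.30 and -0.11, carbon fixation (19 tested) 1 and 1 with -0.18 and 0.02, and tetrapyrrole synthesis (26 tested) 2 and 3 with 0.03 and 0.08. Plastid proteases (26 tested) had 4 and 4 with -0.06 and -0.02, plastid transcription (20 tested) 5 and 6 with 0.44 and 0.46, RNA editing (12 tested) 1 and 1 with 0.08 and 0.12, and the NDH complex (17 tested) 1 and 2 with 0.14 and 0.21. Over all genes 1741 of 15371 tested had an unadjusted p under 0.05, and 1935 of 16201 without replicate 3. The list counts are to be read beside these.

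Among the members nearest to a call, LHCB2.3 (AT3G27690; overlapping AT3G27700), an antenna protein of photosystem II, stood at 239, 239 and 116 CPM against 383, 348 and 337 CPM. The groups did not overlap, yet its difference of -0.83 ± 0.28 gave an adjusted p of 0.23. ATPD (AT4G09650), a subunit of the plastid ATP synthase, had -1.17 (adjusted p = 0.133). HEMA1 (AT1G58290), of an early step of tetrapyrrole synthesis, stood at 63.3, 45.9 and 34.8 CPM against 29.6, 27.4 and 25.7 CPM, with 0.84 ± 0.26 (adjusted p = 0.19), and 0.99 ± 0.25 without replicate 3 (adjusted p = 0.085).

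Plastid-encoded transcripts were called lower in edgeR when replicate 3 was left out. Plastid genes took 70.9%, 70.8% and 53.4% of all counts in gun1 fug1 and 82.0%, 84.4% and 81.7% in fug1. The groups did not overlap, with a mean difference of -17.7 points (two-sided exact permutation p = 0.1, the smallest that 3 against 3 libraries allow), and of -11.9 points without replicate 3 (exact p = 0.2, again the smallest). Of 96 plastid-encoded genes tested, 0 were called with all libraries in edgeR (25 had an unadjusted p under 0.05, and DESeq2 and limma-voom each called 1 lower), and 22 were lower without replicate 3, with log2 fold changes from -2.02 to -1.03. Their median was 0.88 with all libraries and -0.55 without replicate 3, so that this library turned its sign, and scaling by library totals gave -0.28 and 0.03, or -0.30 and -0.53 relative to all genes. ATCG00510 stood at 367, 281 and 1220 CPM against 1210, 1260 and 928 CPM, where replicate 3 alone was at the level of fug1 (-1.80 ± 0.25 without it, adjusted p = 0.000359). ATCG01060 stood at 501, 565 and 5950 CPM against 1650, 2200 and 1420 CPM, with replicate 3 above every fug1 library (-1.72 ± 0.25 without it, adjusted p = 0.000566; 0.41 ± 0.82 with it, adjusted p = 0.9). The most abundant gene, a plastid gene, held 48.9%, 47.4% and 41.4% of all counts in gun1 fug1 and 51.3%, 49.4% and 50.9% in fug1. Without it the plastid shares were 43.0%, 44.6% and 20.6% against 63.0%, 69.2% and 62.8%. Their mean difference was -28.9 points (two-sided exact permutation p = 0.1). Whether a lower plastid share came with fewer plastid transcripts or with more of other RNA cannot be told apart in shares of counts.

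Mitochondrion-encoded genes took 0.815%, 1.05% and 0.0306% of counts in gun1 fug1 and 0.498%, 0.469% and 0.454% in fug1. Replicate 3 was far below and the other gun1 fug1 libraries above fug1, with a mean difference of 0.158 points (exact permutation p = 0.7). Without replicate 3 the difference was 0.458 points (exact p = 0.2) and 2 of 56 tested genes rose. With all libraries 0 of 54 were called in edgeR, DESeq2 or limma-voom, and 16 had an unadjusted p under 0.05 in edgeR.

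XYL4, EXT4, ERD5 and BCB also rose. XYL4 (AT5G64570; overlapping AT5G64572), a beta-xylosidase of the cell wall, stood at 26.1, 22.6 and 62.4 CPM against 10.9, 13.5 and 13.3 CPM. Replicate 3 set much of the difference, which was 1.36 ± 0.28 (adjusted p = 0.0392) with it and 0.96 ± 0.19 (adjusted p = 0.0146) without it. EXT4 (AT1G76930), an extensin of the cell wall, had 7.43, 5.20 and 2.40 CPM against 1.90, 2.02 and 2.03 CPM and rose by 1.57 ± 0.34 (adjusted p = 0.0431), or 1.67 ± 0.32 without replicate 3 (adjusted p = 0.00869). ERD5 (AT3G30775), proline dehydrogenase, had 33.5, 24.5 and 30 CPM against 9.78, 13.7 and 11.4 CPM and rose by 1.33 ± 0.24 (adjusted p = 0.00996), or 1.32 ± 0.24 without replicate 3 (adjusted p = 0.00659). BCB (AT5G20230), a blue copper protein, had 3.41, 7.15 and 7.20 CPM against 0.679, 1.07 and 0.968 CPM and rose by 2.56 ± 0.43 (adjusted p = 0.00513), or 2.51 ± 0.43 without replicate 3 (adjusted p = 0.00381). Without replicate 3 the dehydrin gene COR47 (AT1G20440; 1.28 ± 0.27, adjusted p = 0.0252) and CWLP (AT3G22120, a cell wall linker protein whose locus overlaps AT3G22121; 1.24 ± 0.27, adjusted p = 0.0288) also rose, calls that ended without 4 and 5 of the 5 other libraries in turn (1.1 to 1.36, 0.0926 to 0.384, and 1.01 to 1.44, 0.0856 to 0.26). EXT4 lost its call without any other library (1.21 to 1.67, adjusted p = 0.0859 to 0.462), XYL4 without any fug1 library or gun1 fug1 replicate 1 (1.27 to 1.52, 0.0578 to 0.195), ERD5 without fug1 replicate 1, fug1 replicate 3 or gun1 fug1 replicate 1 (1.15 to 1.3, 0.0698 to 0.176), and BCB without gun1 fug1 replicate 2 (2.17, 0.088).

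Single members of several lists fell. CKX5 (AT1G75450; overlapping UBC16, AT1G09553 and AT1G09557), which degrades cytokinin, stood at 1.44, 1.86 and 0 CPM in gun1 fug1 and at 5.03, 8.81 and 9.87 CPM in fug1. It fell by 2.36 ± 0.35 on the log2 scale (adjusted p = 0.00122), and by 2.28 ± 0.33 without replicate 3 (adjusted p = 0.000566), and was the only called gene of 9 on the cytokinin list, whose median was 0.11 and 0.21. PAR1 (AT2G42870), a regulator of shade responses, stood at 10.5, 12.5 and 7.20 CPM against 26.4, 38.0 and 37.0 CPM and fell by 1.64 ± 0.27 (adjusted p = 0.00505), with -1.55 ± 0.27 without replicate 3 (adjusted p = 0.00741). It was 1 of 16 tested genes of light signalling that was called. LOX2 (AT3G45140), the plastid lipoxygenase of jasmonate synthesis, stood at 19.3, 11.8 and 10.8 CPM against 38.6, 28.6 and 47.0 CPM and fell by 1.36 ± 0.25 (adjusted p = 0.0121), with -1.28 ± 0.24 without replicate 3 (adjusted p = 0.011). It was the only called gene of the defence list, of 11 tested and of 13 without replicate 3. NCED3 (AT3G14440), which limits abscisic acid synthesis, fell by 1.08 ± 0.26 without replicate 3 (adjusted p = 0.0494), where COR47 of the same list rose.

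Other named genes fell. GASA6 (AT1G74670; overlapping AT1G74675), a gibberellin-regulated peptide gene, stood at 20.3, 18.8 and 9.60 CPM against 47.3, 55.7 and 50.8 CPM and fell by 1.55 ± 0.26 (adjusted p = 0.00505), with -1.38 ± 0.22 without replicate 3 (adjusted p = 0.00147). MIPS1 (AT4G39800), of inositol synthesis, stood at 15.6 to 24.5 CPM against 58.7, 44.1 and 52.6 CPM and fell by 1.22 ± 0.22 (adjusted p = 0.0122), with -1.1 ± 0.19 without replicate 3 (adjusted p = 0.00403). ZIF1 (AT5G13740), a transporter of the vacuole that acts in zinc tolerance, stood at 9.33, 11.1 and 4.80 CPM against 28.0, 20.0 and 19.7 CPM and fell by 1.24 ± 0.24 (adjusted p = 0.0166), with -1.14 ± 0.22 without replicate 3 (adjusted p = 0.00966). FLA1 (AT5G55730), an arabinogalactan protein of the cell surface, stood at 7.05, 9.38 and 7.20 CPM against 19.8, 14.8 and 21.0 CPM and fell by 1.2 ± 0.21 (adjusted p = 0.0092), with -1.18 ± 0.20 without replicate 3 (adjusted p = 0.00381). SAR2 (AT4G02080), a small GTPase of vesicle transport, stood at 3.87, 4.18 and 2.40 CPM against 7.88, 8.34 and 8.23 CPM and fell by 1.06 ± 0.23 (adjusted p = 0.0431), with -1.02 ± 0.21 without replicate 3 (adjusted p = 0.0213). In each of these 5 genes every gun1 fug1 library lay below every fug1 library, a condition of the rule that named the largest falls. Of 15 tested glucosinolate genes 2 fell. ESM1 (AT3G14210), which shapes glucosinolate breakdown, had 0.910, 1.95 and 4.80 CPM against 5.57, 3.93 and 6.78 CPM, so that replicate 3 overlapped fug1 (-1.79 ± 0.36, adjusted p = 0.0236; -1.96 ± 0.33 without it, adjusted p = 0.00339). BCAT4 (AT3G19710; overlapping IKU2), of methionine chain elongation, had 1 count in gun1 fug1 against 27 in fug1, a ratio of fug1 to gun1 fug1 of 25.7 (95% exact counting interval 4.23 to 1050; adjusted p = 0.0479), and 24.8 without replicate 3 (4.09 to 1010; adjusted p = 0.0416).

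Without replicate 3 the autophagy gene ATG8C (AT1G62040; -1.31 ± 0.28), the plastoglobule gene FIB (AT4G04020; -1.15 ± 0.26), the receptor kinase gene CLV1 of the shoot meristem (AT1G75820; -0.84 ± 0.19), the auxin repressor gene AXR3 (AT1G04250; -0.83 ± 0.20) and the endoglucanase gene GH9C2 (AT1G64390; -0.80 ± 0.18) fell too, with adjusted p of 0.0237 to 0.0496. Of 80 tested cytosolic ribosomal protein genes 2 fell in that fit, AT3G22230 (-1.12 ± 0.23, adjusted p = 0.0213) and AT2G19730 (-0.94 ± 0.22, adjusted p = 0.0465), and 18 of 80 lay above 0, with a median of -0.30. Of these 7 calls and that of NCED3, each ended without 3 to 5 of the 5 other libraries in turn. CLV1, FIB, AXR3, NCED3 and AT2G19730 were not called by limma-voom (adjusted p = 0.0566 to 0.0936), nor AXR3 by DESeq2 (adjusted p = 0.0624). Scaled by library totals, which moves the median of all genes to 0.56, that median was 0.27 and 7 members were called higher and 0 lower, or -0.29 relative to all genes. The auxin growth list had the lowest median of all lists of 5 or more tested genes without replicate 3, at -0.78, with 0 of 22 called in edgeR, 1 called lower by DESeq2 and 11 with an unadjusted p under 0.05. Nearest to a call was SAUR23 (AT5G18060; -1.16 ± 0.28, adjusted p = 0.0538). Among the falls named here and called with all libraries, GUN1, CKX5 and GASA6 stayed called without each library in turn. PAR1 lost its call without gun1 fug1 replicate 1 (-1.61, adjusted p = 0.0669), LOX2 without fug1 replicate 1, fug1 replicate 3 or gun1 fug1 replicate 2 (-1.36 to -1.18, 0.0506 to 0.088), ZIF1 without fug1 replicate 1 or gun1 fug1 replicate 1 (-1.23 to -1.06, 0.143 to 0.2), and MIPS1 and FLA1 without fug1 replicate 1, fug1 replicate 3 or gun1 fug1 replicate 1 (-1.33 to -1.13, 0.0635 to 0.106, and -1.15 to -1.07, 0.0506 to 0.2). SAR2 lost it without any other library (-1.15 to -1.05, 0.109 to 0.316), and ESM1 and BCAT4 without fug1 replicate 1, fug1 replicate 3, gun1 fug1 replicate 1 or gun1 fug1 replicate 2 (-2.12 to -1.26, 0.05 to 0.4, and -6.72 to -3.42, 0.0991 to 0.402).

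**Figure D3:**
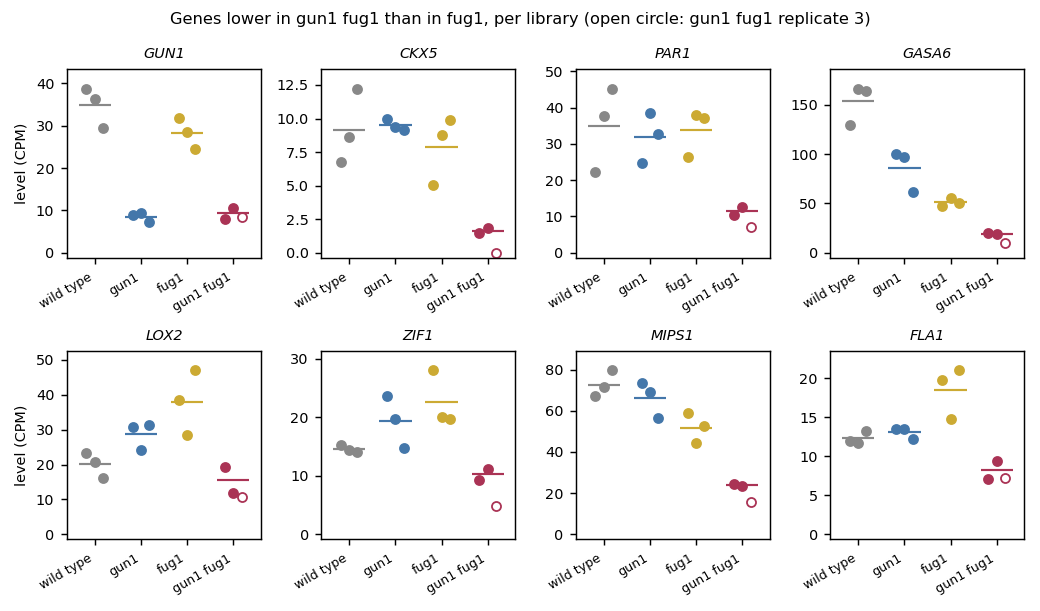
Levels in CPM (linear axis) of 8 genes called lower in gun1 fug1 than in fug1, in each library of the 4 genotypes, with a bar at the mean, which leaves out gun1 fug1 replicate 3 (open circle). CKX5 lies at 0 to 1.86 CPM in gun1 fug1 and at 5.03 to 9.87 CPM in fug1.

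Markers of other organs and cell types were measured because whole seedlings were used. No member of the root, seed, shoot apex, guard cell or vascular lists was called in edgeR with or without replicate 3, with 13, 6, 2, 6 and 8 members tested, of which 0, 1, 0, 2 and 1 had an unadjusted p under 0.05 with all libraries. DESeq2 called 1 seed marker higher. Median log2 fold changes of the tested root markers were 0.61 and 0.71 without replicate 3, with 12 of 13 above 0 in both. They were 0.08 and 0.07 for seed, 0.36 and 0.32 for shoot apex and 0.20 and 0.26 for vascular markers. For guard cell markers they were 0.17 and 0.25, with 4 and 5 of 6 above 0, whereas the summed level was lower than in fug1. The summed level of 17 root and root hair markers was 73.5 to 98.9 CPM in gun1 fug1 replicates 1 and 2, 43.2 CPM in replicate 3, and 36.9 to 63.4 CPM in fug1. For 14 seed and embryo markers the sums were 60.4 to 78.0 CPM, 91.2 CPM and 41.0 to 62.0 CPM in that order, and for 10 guard cell markers 19.0 to 23.2 CPM, 14.4 CPM and 24.0 to 29.1 CPM. Shoot apex markers summed to 5.77 to 6.04, 8.40 and 4.75 to 5.81 CPM, and vascular markers to 68.3 to 74.3, 68.4 and 62.0 to 78.1 CPM. NRT2:1, CLV3 and LFY had 0 counts in all 6 libraries. Fewer cells of a type and less RNA per cell cannot be told apart in these samples, and the part of organ proportions in the results was not tested.

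The remaining lists had no called member in edgeR, DESeq2 or limma-voom with or without replicate 3. Their members with an unadjusted p under 0.05 in edgeR, with all libraries and then without replicate 3, numbered 1 and 3 for clock genes (16 tested, median 0.48 in both), 7 and 5 for iron genes (12 and 13 tested, -0.56 and -0.52), 0 and 1 for flavonoid genes (7 tested, -0.20 and -0.16), and 2 and 2 for sugar starvation genes (10 tested, 0.04 and 0.03). They numbered 1 and 1 for oil mobilisation (17 tested, 0.04 and 0.09), 0 and 0 for cell division (15 and 18 tested, -0.18 and -0.17) and 5 and 5 for histones (28 and 31 tested, -0.13 and -0.15).

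**Figure D4:**
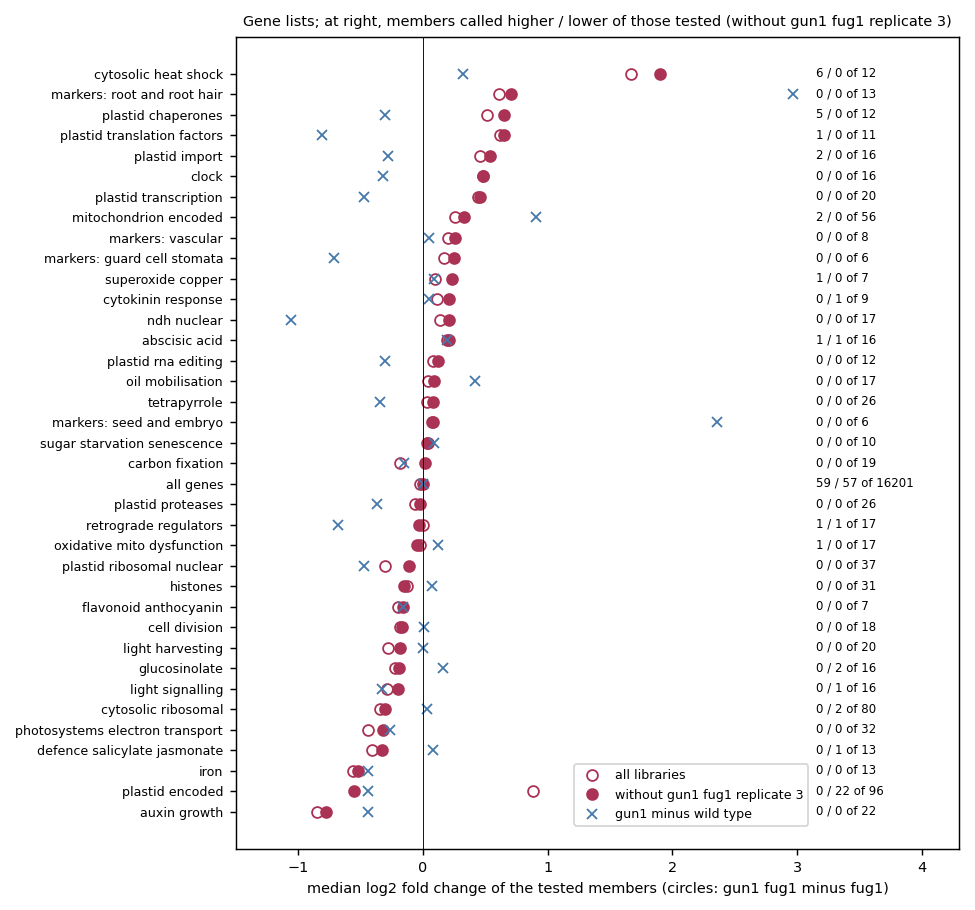
Median log2 fold change of the tested members of each gene list with at least 5 tested members, for gun1 fug1 minus fug1 with all libraries (open circles) and without gun1 fug1 replicate 3 (filled circles), and for gun1 minus wild type (crosses). The cytosolic heat shock list has the highest filled circle, at 1.90 over 12 members and at 1.70 over the 9 tested in both fits, and the plastid-encoded genes lie at 0.88 with and -0.55 without replicate 3.

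The effect of gun1 was also compared between the backgrounds. The interaction, which subtracts the effect of gun1 in the wild-type background from its effect in the fug1 background, was called higher for 123 genes (0.8%) and lower for 83 (0.54%), and without replicate 3 for 255 (1.57%) and 177 (1.09%). Of the 59 genes higher in gun1 fug1 without replicate 3, 29 had a positive interaction call, and of the 57 lower genes 39 had a negative one. The interaction contains the difference by which these genes were chosen, so they lean toward its sign and nothing is read from this tally. In gun1 minus wild type, fitted in the same way, 925 genes were higher (5.71%) and 664 lower (4.1%). Those shared 15 higher genes with the fug1 background (25.4% of its 59 and 1.62% of the 925) and 4 lower genes (7.02% and 0.602%), while 8 of the 59 higher genes fell in gun1 against wild type and 3 of the 57 lower genes rose. The contrasts share no library. Root and root hair markers summed to 5.07 to 14.1 CPM in wild type and 14.7 to 85.7 CPM in gun1. Seed and embryo markers summed to 8.02 to 19.1 and 45.7 to 89.2 CPM. In gun1 minus wild type without replicate 3, 4 of 13 root and 5 of 6 seed markers were called higher and 0 lower. Their median interactions were -2.22 and -2.09, with 0 and 3 negative calls. The part of organ proportions in the interaction was not tested.

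Some plastid chaperone genes were called in opposite directions in the backgrounds. CR88 stood at 13.1, 13.6 and 7.81 CPM in wild type and 6.26, 5.06 and 5.36 CPM in gun1, a fall of 1.06 ± 0.24 (adjusted p = 0.00918), against its rise of 1.38 in the fug1 background. The interaction was 2.44 ± 0.36 (adjusted p = 0.00214). CPN60B fell by 0.83 ± 0.19 in gun1 (adjusted p = 0.00918), with an interaction of 2.09 ± 0.29 (adjusted p = 0.00152), and Cpn60beta2 had -0.02 ± 0.19 (adjusted p = 0.962), with an interaction of 1.72 ± 0.29 (adjusted p = 0.00346). Of 12 chaperone genes 5 had a positive interaction call and 0 a negative one without replicate 3. The median was 1.18, where that of all genes was -0.06. HSP21 is among the 12 through the group where it is high, and its interaction was not called. The NDH complex, which had no call against fug1 in edgeR, had 11 of 17 members lower in gun1 than in wild type and 6 positive interaction calls, among them NdhO (AT1G74880; 1.24, adjusted p = 0.0257). Among translation factors 4 of 11 had a positive interaction call, including emb2726 (1.97 ± 0.31, adjusted p = 0.00267), which fell by 0.70 ± 0.20 in gun1 (adjusted p = 0.0344).

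Of the 12 tested genes of the cytosolic heat shock list 0 were called between gun1 and wild type in edgeR, DESeq2 or limma-voom, with 1 at an unadjusted p under 0.05 in each. Of these 12 genes 3 had a positive and 1, HSFB2A, a negative interaction call without replicate 3. HSP18.2, HSP17.6II and HSP17.4 are among the 12 only through gun1 fug1 replicates 1 and 2. For them neither a missing call in gun1 nor a positive interaction gives support. HSP90.1 had 1.58, 1.64 and 0.725 CPM in wild type and 1.72, 1.03 and 0.842 CPM in gun1 (-0.15 ± 0.45, adjusted p = 0.867), and its interaction was 2.90 ± 0.65 (adjusted p = 0.0276). For AT5G48570 the interaction was 3.40 ± 0.67 (adjusted p = 0.00988). HSP21 was called higher in gun1 too (adjusted p = 0.0282). HSP70 (1.27 ± 0.47, adjusted p = 0.161), HSP21 (adjusted p = 0.0768) and CSD2 (1.31 ± 0.37, adjusted p = 0.0567) did not pass the interaction test. A difference between backgrounds was not shown for them. The genes given here that passed were largely named for their change against fug1, so they lean toward an interaction of that sign. CKX5 (-2.33 ± 0.39, adjusted p = 0.00424) and LOX2 (-1.79 ± 0.32, adjusted p = 0.00609) had negative interaction calls. GUN1 itself fell by 2.04 ± 0.18 in gun1 (adjusted p = 6.52e-07), and its interaction of 0.44 ± 0.27 was not called (adjusted p = 0.372).

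**Figure D5:**
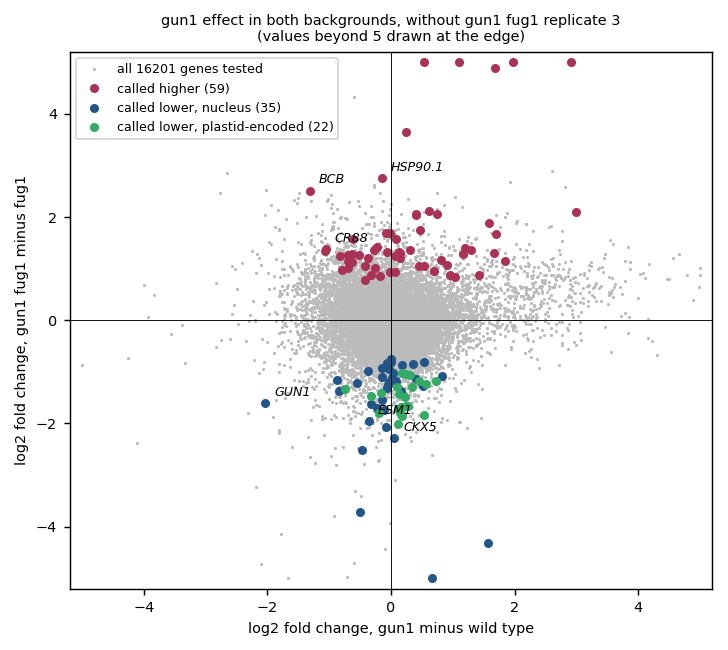
Log2 fold change of each of 16201 genes for gun1 minus wild type (horizontal) and gun1 fug1 minus fug1 (vertical), both without gun1 fug1 replicate 3, with values beyond 5 drawn at the edge and genes called in gun1 fug1 minus fug1 coloured. HSP90.1 lies at 2.75 on the vertical and -0.15 on the horizontal axis, and CR88 at 1.38 and -1.06.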

How the data were processed

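RNA-seq of total RNA from 12 seedling libraries was analysed. The deposited values are raw read counts per gene, one table per library. TopHat2 2.1.1, Trimmomatic, FastQC, featureCounts and the TAIR10 build are listed in the submitters' processing notes. Strand use is not given in the sources used here, so reads of overlapping loci cannot be told apart. One model of all 12 libraries was fitted with edgeR 4.0.16 under R 4.3.3 (robust quasi-likelihood F test, TMM scaling, filterByExpr by genotype). A call needed an adjusted p (Benjamini-Hochberg, all genes tested) under 0.05. CPM is the count scaled by the TMM effective library size. Everything was fitted again without gun1 fug1 replicate 3. Total counts were 8519197 to 12360838 per library. Exact counting intervals are at 95%. Fits were tested on simulated data.

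Members and gene lists were chosen with earlier results of these data known. Genes were named by rule as the largest called rises and falls (those having a symbol, 50 or more counts on average in whichever group was higher, and groups that did not overlap), as the members with the smallest p in each list, and as the 4 smallest interaction p. Other genes were named after their values were seen, to account for list members, and the 18S locus and RR3 likewise. Of the list entries, 427 matched by symbol, 75 by synonym and 106 by identifier in the TAIR10.1 annotation. Plastid and mitochondrial IDs are given as deposited, without names. Alternatives were other scalings, filters and thresholds, DESeq2 1.42.0, limma-voom (limma 3.58.1), a replicate block, the 2 groups alone, organelle genes left out and each library left out.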

Additional observations from a re-analysis of the deposited data

Results flagged for a closer look

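The effect of gun1 differed between the fug1 and FUG1 backgrounds by the edgeR interaction test over all 12 libraries for 123 genes called higher and 83 lower. The values below are interactions, as log2 (gun1 fug1 minus fug1) minus (gun1 minus wild type), each at an adjusted p under 0.05, with the value without gun1 fug1 replicate 3, also at an adjusted p under 0.05, in brackets. Genes called in gun1 fug1 minus fug1 lean toward an interaction of the same sign, since it contains that difference. Among heat shock and stress genes it was 2.81 [2.90] for HSP90.1, 3.37 [3.40] for AT5G48570, 1.45 [1.49] for GolS1, 1.37 [1.38] for ERD5, 3.86 [3.82] for BCB and 1.82 [1.92] for COR47. Among nuclear genes for plastid proteins it was 1.58 [1.72] for Cpn60beta2, 2.38 [2.09] for CPN60B, 2.48 [2.44] for CR88, 1.82 [1.97] for emb2726, 1.24 [1.19] for TIC110, 1.68 [1.84] for HEMA1, 1.63 [1.70] for EX2, 2.86 [2.97] for LPA66 (an RNA editing factor) and 1.91 [1.90] for FER4 (a ferritin). It was 1.75 [1.64] for emb2738 and 2.34 [2.42] for EMB1865. Among genes lower in gun1 fug1 it was -2.41 [-2.33] for CKX5, -1.51 [-1.41] for PAR1, -1.88 [-1.79] for LOX2, -1.65 [-1.54] for ZIF1, -1.29 [-1.26] for FLA1, -1.95 [-1.91] for NCED3, -1.20 [-1.20] for CLV1, -1.52 [-1.34] for GH9C2 and -5.92 [-5.89] for BCAT4, which rests on 1 count in gun1 fug1.

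3 genes with the smallest interaction p were not called between gun1 fug1 and fug1. PCAP1 (AT4G20260; overlapping AT4G20250), a calcium-binding protein of the plasma membrane, had an interaction of 2.32 [2.31], with -1.48 in gun1 against wild type and 0.84 in the fug1 background. SKIP5 (AT3G54480), an F-box protein, had 4.35 [4.36], with -5.20 and -0.85. MRD1 (AT1G53480) had -2.98 [-2.96], with 2.88 and -0.10.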

How the results depend on the processing

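Leaving out 1 library moved the number of higher and lower genes in gun1 fug1 minus fug1 to 11 to 59 and 5 to 57, where the highest counts are those without gun1 fug1 replicate 3. With that library left out as well, the loss of another among fug1 and gun1 fug1 gave 13 to 45 and 5 to 46. Of 41 calls with all libraries 10 held without each library in turn, and 31 ended without at least 1. The interaction counts ranged from 13 to 385 and from 11 to 305. With 2 libraries left in gun1 fug1 the spread is pooled over genotypes.

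Library totals without TMM gave 1 higher and 0 lower genes in edgeR, and 2748 and 30 without gun1 fug1 replicate 3, where the median of all genes moved to 0.56. The interaction then had 0 and 0, and 7175 and 40. No filter gave 92 and 65, 217 and 131 without replicate 3, and for the interaction 353 and 281, and 688 and 412. An adjusted p under 0.01 left 9 and 6. The 2 groups alone gave 196 and 179 without replicate 3. Without organelle genes 25 were lower there, and 10 of 35 nuclear falls ended. A stricter filter left 51 lower interaction genes. Called list members numbered 16, and 27 without replicate 3.

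Deviations of same-numbered fug1 and gun1 fug1 libraries from their group means correlated at -0.0086, -0.0233 and -0.0194. The gun1 fug1 means include replicate 3, which stood apart, so these values cannot decide whether same-numbered libraries were paired. A replicate block gave 40 and 46 genes, 165 and 180 without replicate 3, 129 lower interaction genes, and 407 and 335 without replicate 3.

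The mitochondrial share reversed to -0.0506 points without gun1 fug1 replicate 2, and reached 0.458 without replicate 3. FUG1, never called, ranged from -0.02 (without fug1 replicate 1) to 0.41 (without fug1 replicate 2), and came to -0.15 with the block and no replicate 3, and -0.15 and -0.06 without replicate 3 and fug1 replicate 1 or gun1 fug1 replicate 1. LHCB2.3 came to 0.00 under library totals without replicate 3. MRD1 ranged from -0.26 (without fug1 replicate 1) to 0.14 (without fug1 replicate 2), and came to 0.16 without replicate 3 too, 0.05 with the block and 0.49 by library totals without replicate 3. The causes were not tested.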
